A study of Mus musculus with 12 samples.

Results

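Interferon-stimulated genes (ISGs) are genes that cells transcribe more strongly once an interferon, a secreted protein of the antiviral response, has bound its receptor. A set of 41 mouse ISGs was taken by gene symbol from tables of 25749 genes, and all 41 were found there. The set holds 5 transcription factors and regulators, 5 sensors of foreign nucleic acid, 4 IFIT genes, 6 OAS genes, 2 genes of the ISG15 system, 2 MX GTPases, 3 membrane proteins, 8 other effectors and 6 GTPases of the GBP and IRG families. Members were taken by name, with no measured value in the rule. The set was nevertheless chosen with earlier results of these data known, so it was given no p value as a whole. Total RNA of brain tissue was sequenced from 12 male B6 mice aged 13 weeks, with 4 mice in each of 3 groups. The uninjured mice had no injury, the injured mice had a cerebrovascular injury, and the mice called antibody-treated below were injured and received αLFA1/VLA4 continuously. LFA1 and VLA4 are adhesion receptors (integrins) with which leukocytes attach to vessel walls before they enter tissue, and the series is titled for myeloid cell responses to cerebrovascular injury. Tissue was taken on day 20 after injury, after saline perfusion, as a cube measuring 3 mm on each side. The labels name neither the way the injury was made, nor a control antibody for the other groups, nor the place of the cube in uninjured brain.

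Interferons of type I and type III bind receptors that activate the kinases JAK1 and TYK2, which phosphorylate transcription factors. STAT2 and IRF9 are parts of the complex ISGF3, which binds the interferon-stimulated response element (ISRE) in the promoters of ISGs. Interferon gamma instead acts mainly through the GAS element. The products of ISGs degrade or sequester viral RNA, block entry and budding of viruses, or tag proteins with ISG15, and several of them are themselves part of the pathway. In the brain, resident microglia, endothelial cells, astrocytes and neurons and leukocytes that enter from the blood can all express ISGs, and a low level is kept in healthy tissue.

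Many of the members carry ISRE-like letters in their promoters. RefSeq windows of 300 bases (build GRCm38.p6, 250 before to 50 after each annotated start) were at hand for 30 of the 41 members. An ISRE-like pattern, GAAA followed by NN (bases of any kind) and GAAA again, which reads TTTC, NN and TTTC on the other strand, was searched on both strands and found in 19 of these 30 members (63.3%) and in 1079 of 27025 genes with a window (3.99%). The letters TTCNNNGAA, a GAS-like pattern that reads the same on both strands, were found in 8 of the 30 (26.7%) and in 2582 of the 27025 genes (9.55%). The 6 stretches here belong to the members of smallest p value that hold an ISRE-like match before their start. They are printed because they hold ISRE-like letters, whose binding or function was not measured. Capitals mark the matches, which overlap each other in Bst2 and Oas1a, and no stretch runs past the base before the RefSeq start.
Ifit1: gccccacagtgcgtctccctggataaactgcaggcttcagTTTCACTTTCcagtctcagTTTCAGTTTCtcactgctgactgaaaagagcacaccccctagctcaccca
Bst2: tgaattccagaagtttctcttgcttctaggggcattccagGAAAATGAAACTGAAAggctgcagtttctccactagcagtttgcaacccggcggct
Ifit3: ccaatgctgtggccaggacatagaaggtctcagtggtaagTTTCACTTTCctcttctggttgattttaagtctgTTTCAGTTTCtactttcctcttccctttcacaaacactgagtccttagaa
Trim30a: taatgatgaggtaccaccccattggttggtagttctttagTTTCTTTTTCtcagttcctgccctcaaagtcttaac
Rsad2: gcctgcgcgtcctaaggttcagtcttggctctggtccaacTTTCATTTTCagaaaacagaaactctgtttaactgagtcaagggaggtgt
Oas1a: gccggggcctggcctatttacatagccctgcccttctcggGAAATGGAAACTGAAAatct
In build GRCm38.p6 the Ifit1 stretch lies at chr19:34640745-34640853 on the plus strand and that of Ifit3 at chr19:34583333-34583456 on the plus strand. The Bst2 stretch lies at chr8:71537547-71537642 on the minus strand and that of Trim30a at chr7:104465194-104465269 on the minus strand. Those of Rsad2 and Oas1a lie at chr12:26456523-26456612 on the minus strand and chr5:120907526-120907585 on the minus strand. Ifit1, Ifit3, Bst2 and Oas1a each hold 2 matches before the start, and Trim30a and Rsad2 hold 1. The first base of the match nearest the start lies 85 bases before it in Ifit1, 122 in Ifit3, 124 in Bst2, 36 in Trim30a, 120 in Rsad2 and 14 in Oas1a. These letters were not found in the windows of Irf7, Oasl2 and Lgals3bp, which were called in all 3 comparisons. A match describes the letters alone, and a RefSeq start can differ from the GENCODE start given with the genes.

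In uninjured brain the members were expressed at low to moderate levels. Levels between genes are compared here as TPM, the authors' count of transcripts scaled to exon length and to each library's own total. The exception is a split of the members by CPM further below. In uninjured tissue Ifitm3, a membrane protein that blocks virus entry, stood highest at 43.8 ± 2.13 TPM (SD, n = 4). Cmpk2, a mitochondrial nucleotide kinase, followed at 19.5 ± 1.02 TPM. Ifit3 and Lgals3bp came next at 16.2 ± 1.49 and 15.9 ± 0.725 TPM and differed from each other by less than their SD. Oas3 was lowest at 0.0158 TPM. The median member stood at 2.51 TPM in uninjured tissue, at 3.49 TPM after injury and at 5.03 TPM in antibody-treated mice. Below 1 TPM were 11, 7 and 6 members in the same order, and above 10 TPM were 7, 9 and 10. In antibody-treated tissue the order of the leading members was Ifitm3 at 77.3 ± 12.1, Lgals3bp at 34.3 ± 3.15 and Bst2 at 28.1 ± 5.47 TPM, and Cmpk2 ranked 5.

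At day 20 after injury the summed level of the ISGs was higher in injured than in uninjured tissue, and highest in antibody-treated mice. The exon reads of all 41 members together made up 216 to 224 CPM (counts scaled to a fixed effective library size) in the 4 uninjured libraries. They made up 253 to 263 CPM in the injured and 310.2 to 329 CPM in the antibody-treated libraries, with no overlap between any groups. In bulk tissue, fewer cells of a type and less RNA per cell cannot be told apart. Of the 41 members, 38 passed the filter on low counts and were tested among 14771 genes with edgeR's quasi-likelihood test at an adjusted p of 0.05. For 4 of these 38 (Zbp1, Oas1b, Oas2 and Ifi27l2a) the filter was passed only because antibody-treated libraries counted toward it. Oas3, Oasl1 and Mx1 were not tested. Rises and falls of single genes are given as log2 fold changes ± SE with the adjusted p of that test.

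In injured over uninjured tissue 13 of the 38 tested members rose and 1 fell, where 11.9% of all tested genes were called higher and 11% lower. The median log2 fold change was 0.33 over the members and 0.03 over all tested genes, and 29 of 38 members had a positive value (53.4% of all genes). All 4 injured libraries lay above all 4 uninjured ones in 19 members (17.4% of all genes) and below them in 1 (12.9%). In antibody-treated over uninjured tissue 24 of 38 rose and 0 fell, against 6.3% and 3.22% of all genes. The median log2 fold change was 0.73 over the members and 0.01 over all genes, 34 members were positive (51.6% of all genes), and the libraries lay apart upward in 26 (9.01%) and downward in 1 (6.56%). At an unadjusted p under 0.05 there were 32 higher and 1 lower, a looser threshold to which the shares of 6.3% and 3.22% do not apply. In antibody-treated over injured tissue 18 of 38 rose and 0 fell, against 10.9% and 10.7% of all genes. The median was 0.35 over the members and 0.01 over all genes, 34 were positive (51.8%), and the libraries lay apart upward in 15 (10.6%) and downward in 0 (11.4%). At an unadjusted p under 0.05 there were 23 higher and 1 lower, and the shares of 10.9% and 10.7% do not apply there either. The members that rose in both comparisons of antibody-treated tissue include Zbp1, Oas2 and Ifi27l2a. These passed the filter only through antibody-treated libraries, where they were highest, so their calls are not independent of the filter. With no filter on low counts, 23 members rose over uninjured and 18 over injured tissue. The number of lower members was 1 under the DESeq2 Wald test for antibody-treated over uninjured tissue and 0 for antibody-treated over injured tissue, and 0 with limma voom in both. The first pair of comparisons shares the uninjured libraries, the last pair the antibody-treated ones, and both comparisons with the injured group share the injured ones. The count of 13 members that rose in injured tissue fell to 6 without library uninjured 1, and to 8 without injured 3 or without injured 4. It was also 8 without uninjured 1 and antibody-treated 4 together, which hold the extreme values on principal component 1. Calls over the whole table fell in these runs as well. Of all tested genes, 1764 of 14771 were called higher with every library, 838 of 14865 without uninjured 1 and 969 of 14867 without injured 3. Without injured 4 they were 685 of 14867, and with the 2 libraries left out 1287 of 14815. The plot of fold changes shows each tested member in the 3 comparisons.

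**Figure D1:**
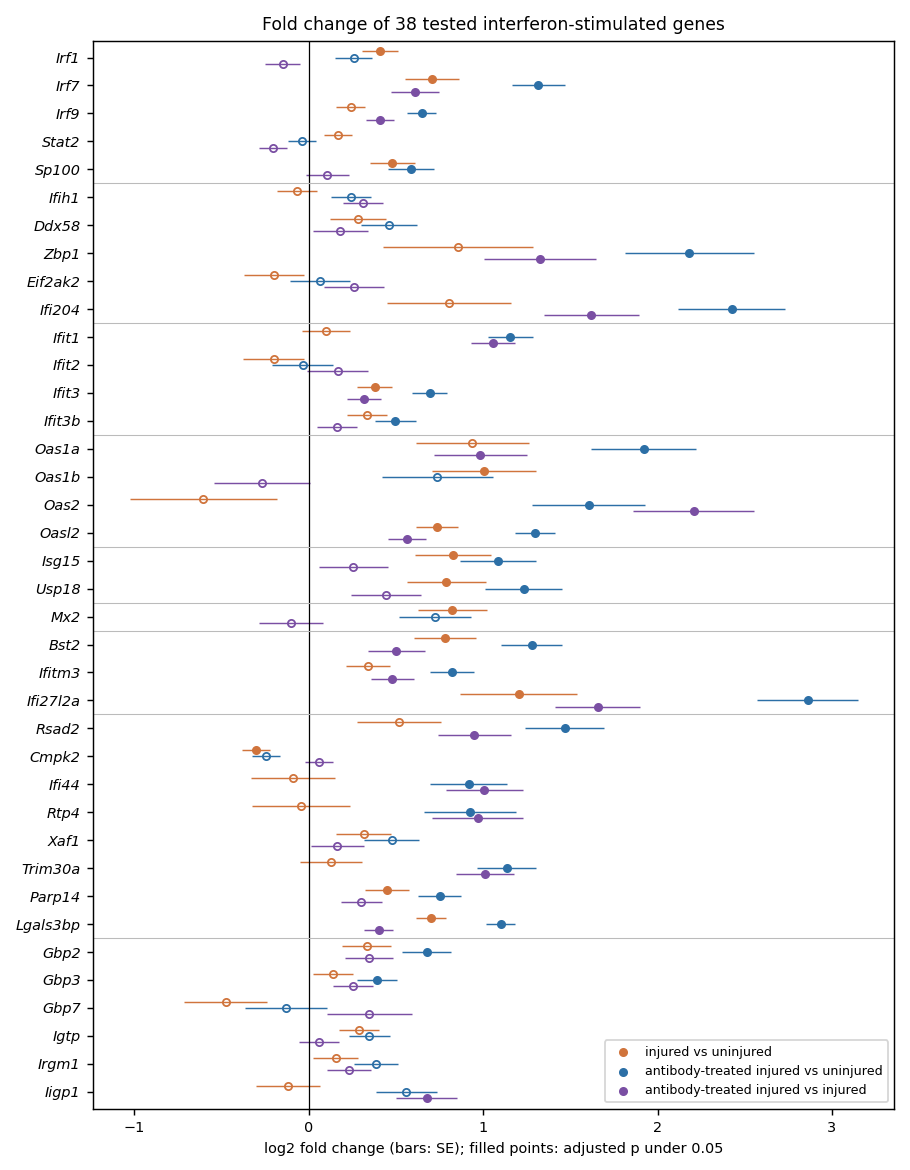
Log2 fold change of the 38 tested members in 3 comparisons, on the horizontal axis with SE as bars and 1 row per gene in order of role; filled points passed an adjusted p of 0.05. For antibody-treated over uninjured tissue 24 points are filled, all to the right of 0, and Cmpk2 is the member filled to the left of 0 for injured over uninjured tissue.

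**Figure D2:**
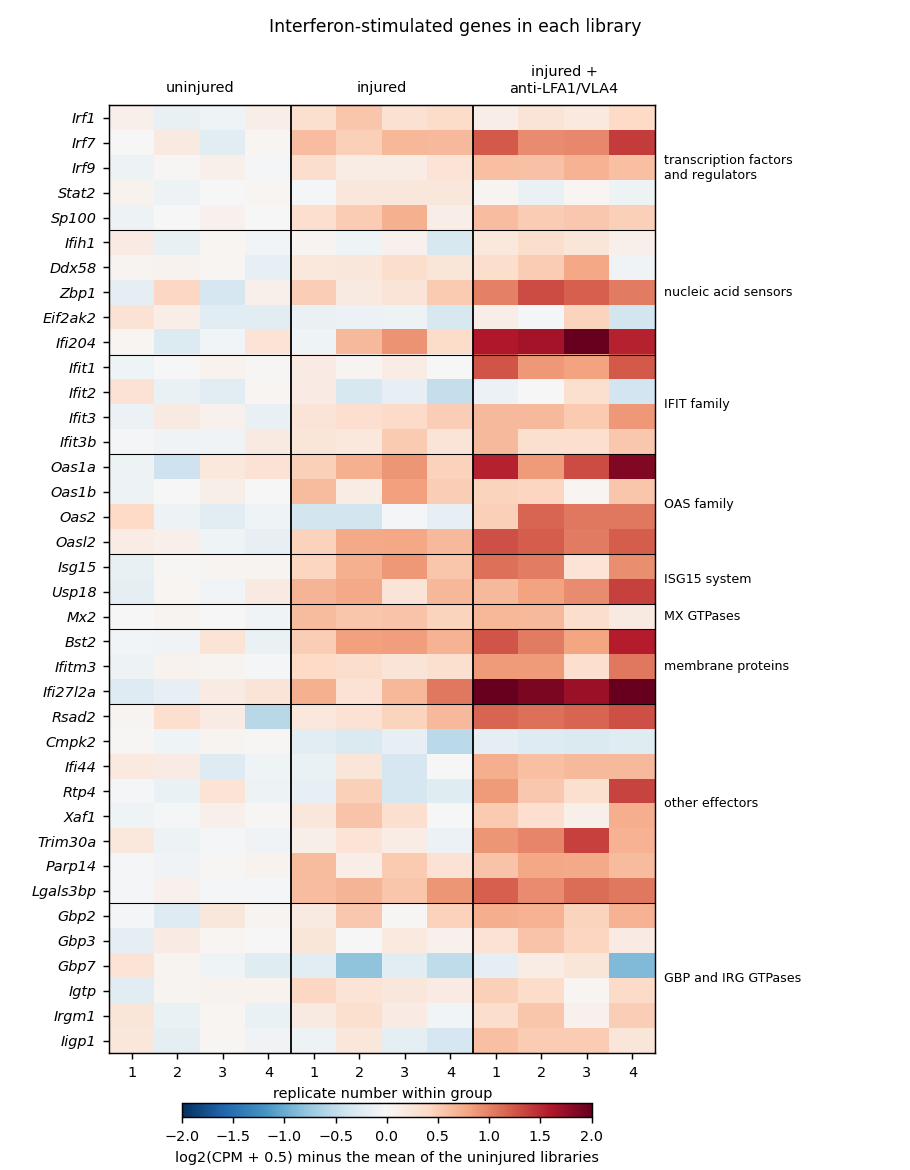
Each of the 38 tested members in each of the 12 libraries, as log2(CPM + 0.5) minus the mean of the 4 uninjured libraries; columns are replicates within the 3 groups and horizontal lines separate the roles. Red cells are above the uninjured mean, and those of Ifi204 and Ifi27l2a in the antibody-treated libraries are among the darkest.

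The members with few reads in uninjured tissue had the larger median fold change. The 8 tested members under 1 CPM in uninjured tissue had a median log2 fold change of 1.76 in antibody-treated over uninjured tissue (range 0.72 to 2.86), with 6 called. The other 30 had a median of 0.62 (range -0.24 to 1.47), with 18 called, beside 6.3% of all tested genes called higher. A gene that is scarce in 2 groups passes the filter only where the remaining group is high, so these medians describe the tested members and test nothing. The split is by CPM, which is not scaled to exon length, and TPM would sort some members otherwise. Ifi27l2a, under 1 CPM, stood at 2.25 TPM in uninjured tissue, and Rsad2, among the other 30, at 0.599 TPM. The ISRE-like letters were in the windows of 11 of the 17 members with a window that rose in antibody-treated over uninjured tissue (64.7%) and of 7 of the 11 that were not called (63.6%). For injured over uninjured tissue they were in 3 of 8 that rose (37.5%) and in 15 of 19 that were not called (78.9%), shares that were not tested.

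Several cell type marker lists moved in the same order of groups as the ISGs, and their part in the result was not tested. The shares of all tested genes called higher stand beside these counts too, at 11.9%, 6.3% and 10.9%. Markers of monocytes and macrophages (14 genes) summed to 52.8 to 59.9 CPM in the uninjured libraries, 98.96 to 120.1 after injury and 199.9 to 275 with the antibody, and 4, 8 and 6 of their 10 tested genes rose in injured over uninjured, antibody-treated over uninjured and antibody-treated over injured tissue. Most reads of this list were of Lyz2, with 2575, 5731 and 11343 summed over the uninjured, injured and antibody-treated libraries. Microglia markers (12 genes, all tested) summed to 509.7 to 529 CPM in the uninjured libraries, 535 to 582 after injury and 581 to 632 with the antibody, with 3 higher and 2 lower, 3 higher and 3 higher in the same comparisons. Neutrophil markers (10 genes, 5 tested) summed to 6.64 to 8.74 CPM in the uninjured libraries, 12.5 to 14.1 after injury and 22.9 to 26.9 with the antibody, with 1, 5 and 4 higher, while Ly6g, a defining neutrophil marker, had no read in any library. Csf3r had 414, 738 and 634 reads summed over the 3 groups in that order. That was most of the neutrophil list in the uninjured and injured groups, but not in the antibody-treated group. S100a9 had 28, 40 and 262 reads and S100a8 22, 32 and 226 in the same order, so the sum with the antibody does not mainly follow Csf3r. Fibroblast and meningeal markers (10 genes) summed to 224 to 233 CPM in the uninjured libraries, 246 to 275 after injury and 559 to 624 with the antibody, with 5, 8 and 7 higher. In the same order of groups Col1a1 had 646, 1492 and 4754 of these reads, Col1a2 1170, 2202 and 6100 and Col3a1 391, 692 and 7059. Pdgfra had 3211, 2726 and 2337, Slc6a13 441, 638 and 499 and Aldh1a2 364, 562 and 501, so the rise with the antibody mainly follows the collagens. Skeletal muscle markers (10 genes) summed to 9.88 to 14.8 CPM in the uninjured libraries, 12.99 to 16.04 after injury and 117 to 157 with the antibody, with 0, 10 and 10 higher, and no muscle marker was at 0 in any group. B and plasma cell markers (8 genes, 3 tested) summed to 36.4 to 40.9 CPM in the uninjured libraries, 33.8 to 39.8 after injury and 60.5 to 88.6 with the antibody, with 2 of 3 higher in the last 2 comparisons. In the same order of groups Ighm had 2254, 2324 and 2019 of these reads and Igkc 27, 40 and 1781. T and NK cell markers (13 genes, 2 tested) summed to 17.4 to 19.1 CPM in the uninjured libraries, 13.9 to 17.1 after injury and 14.8 to 19.1 with the antibody. Most of these reads were of Cd4, with 988, 794 and 722 summed over the 3 groups in that order. Lck came next with 66, 112 and 78, so the sum mainly follows Cd4. Markers of plasmacytoid dendritic cells (5 genes, 1 tested), a main source of type I interferon, summed to 6.12 to 8.52 CPM in the uninjured libraries, 6.63 to 8.96 after injury and 6.99 to 9.76 with the antibody, and in edgeR 0 were called and 0 had an unadjusted p under 0.05 in any of the 3 comparisons. Most of these reads were of Cox6a2, with 429, 474 and 427 summed over the 3 groups in that order. Ly6d came next with 22, 21 and 18, so this list says little about the amount of these cells. Endothelial markers (9 genes) summed to 288 to 300.3 CPM in the uninjured libraries, 269 to 279.8 after injury and 281 to 295 with the antibody. Markers of neurons, astrocytes and oligodendrocytes were abundant in all 12 libraries, the neuron list at 7271 to 8124 CPM in the uninjured libraries, 6067 to 6861 after injury and 6032 to 7091 with the antibody.

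**Figure D3:**
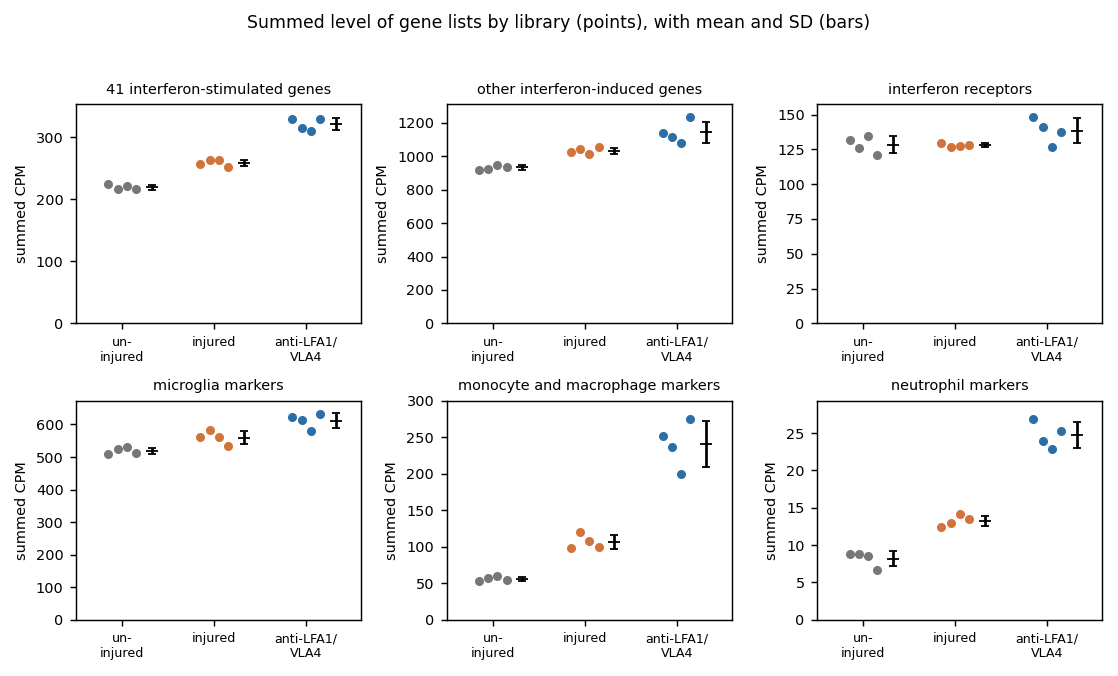
Summed CPM (vertical axis, from 0) of 6 gene lists in each of the 12 libraries as points, with the mean and SD of each group beside them. The 41 ISGs lie at 216 to 224, 253 to 263 and 310.2 to 329 CPM with no overlap, and the monocyte, macrophage and neutrophil lists also lie apart in the 3 groups. Most reads of the monocyte and macrophage list are of Lyz2. Most of the neutrophil list are of Csf3r in the uninjured and injured groups, but not in the antibody-treated group.

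Among the transcription factors and regulators, Irf7 and Irf9 had the smallest p values and Stat2 was not called. Irf7 (ENSMUSG00000025498, chr7:141262706-141266481) is the factor that amplifies type I interferon transcription. It stood at 2.02, 2.35, 1.68 and 2.08 CPM in the uninjured libraries, 3.38, 2.99, 3.49 and 3.43 in the injured and 5.40, 4.34, 4.42 and 6.15 in the antibody-treated libraries. The 3 groups did not overlap, with antibody-treated libraries highest. The log2 fold change was 0.71 ± 0.16 (adjusted p = 0.0100) in injured over uninjured, 1.32 ± 0.15 (adjusted p = 9.10e-05) in antibody-treated over uninjured and 0.61 ± 0.14 (adjusted p = 0.00884) in antibody-treated over injured tissue. Its exons overlap those of Phrf1 on the other strand, and no source used here says if reads were counted by strand. Irf9 (ENSMUSG00000002325, chr14:55603571-55610030), the DNA-binding part of ISGF3, stood at 8.0, 8.73, 9.26 and 8.39 CPM in the uninjured libraries, 11.1, 9.52, 9.52 and 10.5 in the injured and 13.3, 13.2, 14.2 and 13.2 in the antibody-treated libraries. The groups again lay in sequence without overlap. Irf9 rose by 0.65 ± 0.08 (adjusted p = 0.000203) over uninjured and 0.41 ± 0.08 (adjusted p = 0.00390) over injured tissue, while injured over uninjured gave 0.24 ± 0.08 (adjusted p = 0.0516). Its exons share a stretch with Rnf31 on the same strand. Irf1, an early factor induced by interferon gamma, rose in injured over uninjured tissue by 0.41 ± 0.10 (adjusted p = 0.0165), and antibody-treated tissue gave 0.26 ± 0.10 over uninjured with an adjusted p of 0.136. Sp100, a nuclear body protein, rose by 0.48 ± 0.13 (adjusted p = 0.0216) in injured and 0.59 ± 0.13 (adjusted p = 0.0128) in antibody-treated over uninjured tissue. Stat2, a subunit of ISGF3, had means of 25.2 ± 1.27, 28.2 ± 2.44 and 24.5 ± 1.69 CPM (SD, n = 4) in uninjured, injured and antibody-treated tissue and passed in none of the 3 comparisons. The call of Irf1 was lost without library injured 2 (log2 fold change 0.35, adjusted p 0.0521) and with removal of the GC and length trend (log2 fold change 0.28, adjusted p 0.0736). That of Sp100 in injured tissue was lost without library uninjured 1 or 4 or injured 2 or 3 (log2 fold change 0.34 to 0.48, adjusted p 0.0525 to 0.0742) and with uninjured 1 and antibody-treated 4 both left out (log2 fold change 0.43, adjusted p 0.0582), and that over uninjured tissue with the antibody was lost with uninjured 1 and antibody-treated 4 both left out (log2 fold change 0.55, adjusted p 0.0620).

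Of the nucleic acid sensors, Ifi204 and Zbp1 rose in antibody-treated tissue and the 3 other members passed in no comparison. The shares of all tested genes called higher were 6.3% over uninjured and 10.9% over injured tissue. Ifi204 (ENSMUSG00000073489, chr1:173747293-173766943) is a DNA sensor of the PYHIN family. It stood at 0.605, 0.391, 0.537 and 0.805 CPM in the uninjured libraries, 0.509, 1.18, 1.51 and 0.888 in the injured and 2.77, 2.92, 4.35 and 2.63 in the antibody-treated libraries. Every antibody-treated library lay above every other library. The rise was 5.37-fold over uninjured tissue, a log2 fold change of 2.43 ± 0.31 (adjusted p = 0.000206), and 3.08-fold over injured tissue, 1.62 ± 0.27 (adjusted p = 0.00169). Injured over uninjured tissue gave 0.80 ± 0.35 (adjusted p = 0.111), with overlapping libraries. Of its exon reads 87.4% were unique to the gene, so part of its count could belong to a near copy. Zbp1 (ENSMUSG00000027514, chr2:173206612-173218923), a sensor of Z-form nucleic acid that can start cell death, stood at 0.134, 0.456, 0.0671 and 0.268 CPM in the uninjured libraries, 0.509, 0.311, 0.361 and 0.533 in the injured and 0.948, 1.28, 1.14 and 0.976 in the antibody-treated libraries. It was scarce in the uninjured and injured libraries and higher in each antibody-treated one. Its counts reached the floor of the low-count filter in 0 uninjured, 0 injured and 4 antibody-treated libraries. Zbp1 was thus tested only through the group where it was high, and its calls are no independent support. Its log2 fold change was 2.18 ± 0.37 (adjusted p = 0.00211) over uninjured and 1.33 ± 0.32 (adjusted p = 0.0119) over injured tissue. Zbp1 gave 0.86 ± 0.43 (adjusted p = 0.154) in injured over uninjured tissue. Ifih1 and Ddx58, which encode the RNA sensors MDA5 and RIG-I, had log2 fold changes of -0.07, 0.24 and 0.31 and of 0.28, 0.46 and 0.18 in the 3 comparisons. Eif2ak2, the kinase PKR, gave -0.20, 0.06 and 0.26.

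The IFIT genes encode proteins that bind viral RNA ends. In antibody-treated over uninjured tissue 3 of the 4 rose, beside 6.3% of all tested genes. Ifit1 (ENSMUSG00000034459, chr19:34640871-34650009) stood at 3.03, 3.19, 3.42 and 3.29 CPM in the uninjured libraries, 3.69, 3.36, 3.61 and 3.20 in the injured and 8.39, 6.33, 5.99 and 8.18 in the antibody-treated libraries. Uninjured and injured libraries overlapped, and all antibody-treated libraries lay above both. Ifit1 gave 0.10 ± 0.14 (adjusted p = 0.615) in injured over uninjured tissue. It rose 2.23-fold over uninjured tissue, 1.16 ± 0.13 (adjusted p = 7.95e-05), and 2.08-fold over injured tissue, 1.06 ± 0.13 (adjusted p = 0.000171). Ifit3 (ENSMUSG00000074896, chr19:34583531-34588731) stood at 10.8, 13.4, 12.5 and 10.6 CPM in the uninjured libraries, 14.1, 15, 15.5 and 16.7 in the injured and 18.7, 18.8, 17.2 and 21.8 in the antibody-treated libraries. Its 3 groups lay in sequence without overlap. The log2 fold changes were 0.38 ± 0.10 (adjusted p = 0.0203) in injured over uninjured, 0.69 ± 0.10 (adjusted p = 0.000607) in antibody-treated over uninjured and 0.32 ± 0.10 (adjusted p = 0.0357) in antibody-treated over injured tissue. Ifit3b, a near copy of Ifit3, rose by 0.50 ± 0.12 (adjusted p = 0.0180) in antibody-treated over uninjured tissue. Unique reads made up 71.9% of the Ifit3 and 74.8% of the Ifit3b exon reads, so how the shared reads were divided between them is uncertain. Ifit2 had means of 11.96 ± 1.99, 10.4 ± 2.14 and 11.6 ± 2.51 CPM and was not called. The Ifit3 call in injured tissue was lost without library uninjured 1 or 4 or injured 3 or 4 (log2 fold change 0.32 to 0.35, adjusted p 0.0551 to 0.0776), and that in antibody-treated over injured tissue was lost without library injured 1 or 2 or 3 or antibody-treated 1 or 2 or 4 (log2 fold change 0.25 to 0.34, adjusted p 0.0546 to 0.0781). The latter was also lost with scaling by library size alone, a model of the 2 compared groups alone, a replicate block, removal of the GC and length trend and uninjured 1 and antibody-treated 4 both left out (log2 fold change 0.18 to 0.32, adjusted p 0.0560 to 0.122). The Ifit3b call was lost without library uninjured 1 or 2 or antibody-treated 1 (log2 fold change 0.42 to 0.48, adjusted p 0.0527 to 0.0646) and with uninjured 1 and antibody-treated 4 both left out (log2 fold change 0.43, adjusted p 0.112).

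The OAS family includes synthetases of 2′-5′ oligoadenylate, the signal that switches on RNase L, and 3 of the 4 tested members rose in antibody-treated over both other groups. Of all tested genes 6.3% were called higher over uninjured and 10.9% over injured tissue. Oasl2 (ENSMUSG00000029561, chr5:114896936-114912234), a relative that binds RNA, stood at 3.76, 3.65, 3.15 and 2.95 CPM in the uninjured libraries, 4.84, 6.04, 6.08 and 5.56 in the injured and 8.90, 8.47, 7.49 and 8.48 in the antibody-treated libraries. The groups lay in sequence without overlap. It rose by 0.74 ± 0.12 (adjusted p = 0.00245) in injured over uninjured, 1.30 ± 0.12 (adjusted p = 9.68e-06) in antibody-treated over uninjured and 0.56 ± 0.11 (adjusted p = 0.00332) in antibody-treated over injured tissue. Oas1a (ENSMUSG00000052776, chr5:120896256-120907521) stood at 0.605, 0.391, 0.872 and 0.939 CPM in the uninjured libraries, 1.15, 1.43, 1.69 and 1.12 in the injured and 2.92, 1.64, 2.42 and 3.75 in the antibody-treated libraries. All injured libraries lay above all uninjured ones, while injured and antibody-treated libraries overlapped. Its log2 fold changes were 0.94 ± 0.32 (adjusted p = 0.0527), 1.92 ± 0.30 (adjusted p = 0.00110) and 0.98 ± 0.27 (adjusted p = 0.0196) in the same order, with 68.6% of its reads unique. Oas2 (ENSMUSG00000032690, chr5:120730333-120749853) stood at 0.672, 0.326, 0.268 and 0.335 CPM in the uninjured libraries, 0.191, 0.187, 0.361 and 0.296 in the injured and 0.729, 1.49, 1.35 and 1.35 in the antibody-treated libraries. It was scarce in all uninjured and injured libraries. Its counts reached the floor of the low-count filter in 0 uninjured, 0 injured and 4 antibody-treated libraries. Oas2 was thus tested only through the group where it was high, and its calls are no independent support. It rose by 2.21 ± 0.35 (adjusted p = 0.00106) over injured and 1.60 ± 0.33 (adjusted p = 0.00727) over uninjured tissue, while injured over uninjured gave -0.60 ± 0.42 (adjusted p = 0.302). Oas1b, annotated as a polymorphic pseudogene, rose in injured over uninjured tissue by 1.01 ± 0.30 (adjusted p = 0.0308) at means of 0.400 ± 0.0549 and 0.811 ± 0.246 CPM. Oas3 had 2, 6 and 16 exon reads summed over the uninjured, injured and antibody-treated libraries, and Oasl1 had 16, 24 and 36, too few to test. The Oas1b call was lost without library uninjured 1 or 2 or 4 or injured 1 or 3 or 4 (log2 fold change 0.81 to 1.01, adjusted p 0.0579 to 0.106). It was also lost with no filter on low counts, the DESeq2 Wald test, a replicate block, reads over whole genes, removal of the GC and length trend and uninjured 1 and antibody-treated 4 both left out (log2 fold change 0.56 to 0.999, adjusted p 0.0526 to 0.173). The Oas1a call over injured tissue was lost without library injured 4 or antibody-treated 1 (log2 fold change 0.92 to 0.94, adjusted p 0.0511 to 0.0610).

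Both genes of the ISG15 system and the tested MX GTPase rose in injured tissue, and none passed in antibody-treated over injured tissue. The shares of all tested genes called higher there were 11.9% and 10.9%. Isg15 encodes a ubiquitin-like modifier and Usp18 the protease that removes it and also dampens the type I receptor. Usp18 (ENSMUSG00000030107, chr6:121245906-121270917) stood at 0.941, 1.17, 1.07 and 1.34 CPM in the uninjured libraries, 2.10, 2.24, 1.45 and 2.07 in the injured and 2.04, 2.35, 2.64 and 3.68 in the antibody-treated libraries. Both injured groups lay above the uninjured libraries and overlapped each other. It rose by 0.79 ± 0.23 (adjusted p = 0.0269) in injured and 1.23 ± 0.22 (adjusted p = 0.00316) in antibody-treated over uninjured tissue, and antibody-treated over injured gave 0.44 ± 0.20 (adjusted p = 0.131). Isg15, at 1.33 ± 0.128, 2.37 ± 0.372 and 2.84 ± 0.770 CPM, rose by 0.83 ± 0.22 (adjusted p = 0.0198) and 1.08 ± 0.22 (adjusted p = 0.00696) over uninjured tissue, and antibody-treated over injured gave 0.25 ± 0.20 (adjusted p = 0.385). Mx2 (ENSMUSG00000023341, chr16:97535308-97560900), a dynamin-like antiviral GTPase annotated as a polymorphic pseudogene, stood at 0.739, 0.782, 0.738 and 0.671 CPM in the uninjured libraries, 1.40, 1.31, 1.33 and 1.18 in the injured and 1.46, 1.42, 1.07 and 0.901 in the antibody-treated libraries. Every injured and antibody-treated library lay above the uninjured ones. It rose by 0.82 ± 0.20 (adjusted p = 0.0168) in injured tissue, antibody-treated over uninjured gave 0.72 ± 0.21 (adjusted p = 0.0708) and antibody-treated over injured -0.10 ± 0.18 (adjusted p = 0.796). Mx1 had 25, 30 and 49 reads summed over the uninjured, injured and antibody-treated libraries and was not tested. The Usp18 call in injured tissue was lost without library uninjured 1 or 2 or injured 2 or 4 (log2 fold change 0.71 to 0.81, adjusted p 0.0525 to 0.0824) and with removal of the GC and length trend (log2 fold change 0.65, adjusted p 0.0600). That of Isg15 in injured tissue was lost without library uninjured 1 or injured 2 or 3 (log2 fold change 0.71 to 0.81, adjusted p 0.0506 to 0.0633) and with uninjured 1 and antibody-treated 4 both left out (log2 fold change 0.74, adjusted p 0.0530), and that with the antibody was lost with uninjured 1 and antibody-treated 4 both left out (log2 fold change 0.97, adjusted p 0.0523). The Mx2 call in injured tissue was lost with reads over whole genes (log2 fold change 0.49, adjusted p 0.173).

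The 3 membrane proteins all rose in antibody-treated tissue over both other groups, beside 6.3% of all tested genes over uninjured and 10.9% over injured tissue. Ifi27l2a (ENSMUSG00000079017, chr12:103442167-103443680), a small hydrophobic protein strongly induced by type I interferon, stood at 0.269, 0.326, 0.537 and 0.604 CPM in the uninjured libraries, 1.02, 0.622, 0.964 and 1.42 in the injured and 3.21, 2.92, 2.57 and 4.13 in the antibody-treated libraries. The groups lay in sequence without overlap, and its antibody-treated mean was the farthest from the uninjured one on the log2 scale among the tested members. Its counts reached the floor of the low-count filter in 0 uninjured, 3 injured and 4 antibody-treated libraries. Ifi27l2a thus passed the filter only because antibody-treated libraries, where it was highest, counted toward it. The rise was 1.20 ± 0.34 (adjusted p = 0.0242) in injured over uninjured, 2.86 ± 0.29 (adjusted p = 2.92e-05) in antibody-treated over uninjured (7.26-fold) and 1.66 ± 0.24 (adjusted p = 0.000732) in antibody-treated over injured tissue. Bst2, the tether that holds budding virus at the cell surface, had means of 3.83 ± 0.583, 6.58 ± 0.752 and 9.33 ± 2.30 CPM (SD, n = 4) in uninjured, injured and antibody-treated tissue. Its log2 fold changes were 0.78 ± 0.18 (adjusted p = 0.0114), 1.28 ± 0.17 (adjusted p = 0.000377) and 0.50 ± 0.16 (adjusted p = 0.0432) in the 3 comparisons. Ifitm3 had means of 12.4 ± 0.725, 15.7 ± 0.654 and 21.9 ± 4.47 CPM. It rose by 0.82 ± 0.13 (adjusted p = 0.00100) over uninjured and 0.48 ± 0.12 (adjusted p = 0.0157) over injured tissue, and injured over uninjured gave 0.34 ± 0.13 (adjusted p = 0.0677). With the GC and length trend removed, the log2 fold change of Ifi27l2a in antibody-treated over uninjured tissue was 2.24, the lowest over the alternatives, and it stayed called. The Ifi27l2a call in injured tissue was lost without library uninjured 1 or 2 or injured 4 (log2 fold change 0.97 to 1.09, adjusted p 0.0623 to 0.0874) and with uninjured 1 and antibody-treated 4 both left out (log2 fold change 1.02, adjusted p 0.0522). That of Bst2 over injured tissue was lost without library injured 1 or 2 or 3 or 4 or antibody-treated 1 or 2 or 4 (log2 fold change 0.34 to 0.56, adjusted p 0.0520 to 0.0987). It was also lost with scaling by library size alone, a model of the 2 compared groups alone, a replicate block and uninjured 1 and antibody-treated 4 both left out (log2 fold change 0.34 to 0.50, adjusted p 0.0513 to 0.0988). The Ifitm3 call over injured tissue was lost with removal of the GC and length trend (log2 fold change 0.17, adjusted p 0.134).

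**Figure D4:**
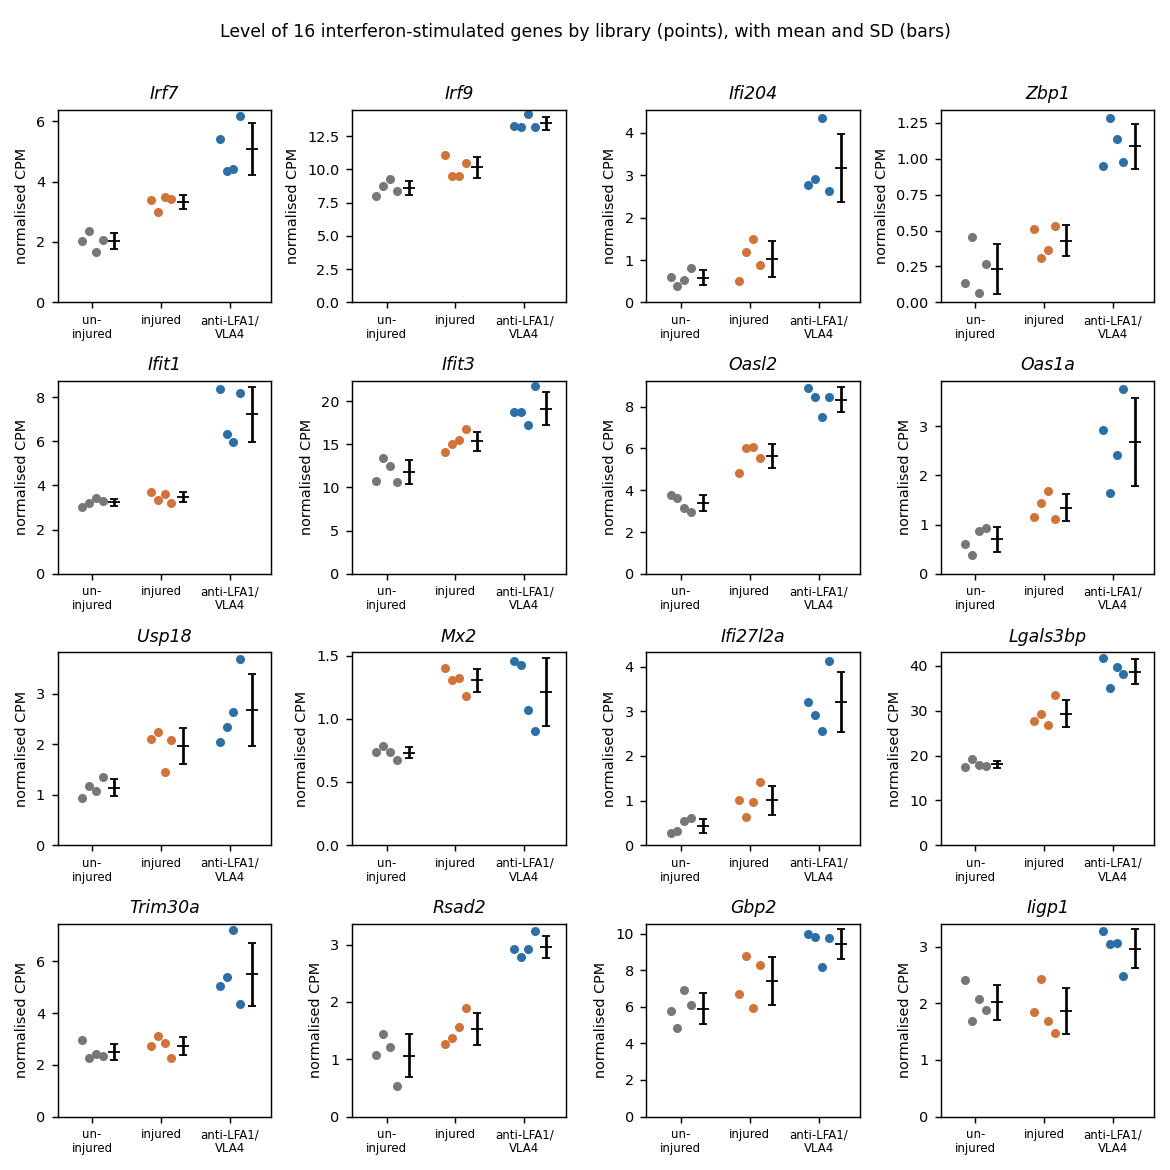
Normalised CPM (vertical axis, from 0) of 16 members in the 12 libraries as points, with the mean and SD of each group beside them. In Irf7, Irf9, Ifit3, Oasl2, Ifi27l2a and Lgals3bp the 3 groups lie in sequence without overlap, while in Ifit1, Trim30a and Iigp1 the injured libraries overlap the uninjured ones.

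Among the 8 other effectors, 6 rose in antibody-treated over uninjured tissue, 5 in antibody-treated over injured tissue, and 1 fell in injured tissue. The matching shares of all tested genes were 6.3% and 10.9% higher and 11% lower. Lgals3bp (ENSMUSG00000033880, chr11:118392751-118402092), a secreted glycoprotein that binds galectins, stood at 17.5, 19.2, 17.8 and 17.6 CPM in the uninjured libraries, 27.8, 29.2, 26.7 and 33.6 in the injured and 41.8, 35.1, 39.8 and 38.1 in the antibody-treated libraries. The groups lay in sequence without overlap, and its rise over uninjured tissue had the smallest p value of any member. The log2 fold changes were 0.70 ± 0.08 (adjusted p = 0.000381), 1.10 ± 0.08 (adjusted p = 2.24e-06) and 0.40 ± 0.08 (adjusted p = 0.00480) in injured over uninjured, antibody-treated over uninjured and antibody-treated over injured tissue. Trim30a (ENSMUSG00000030921, chr7:104409025-104465193), a TRIM family protein that restrains inflammatory signalling, stood at 2.96, 2.28, 2.42 and 2.35 CPM in the uninjured libraries, 2.74, 3.11, 2.83 and 2.25 in the injured and 5.03, 5.41, 7.20 and 4.35 in the antibody-treated libraries. Injured and uninjured libraries overlapped, and all antibody-treated libraries lay above both. It rose by 1.14 ± 0.17 (adjusted p = 0.000778) and 1.01 ± 0.17 (adjusted p = 0.00136) in antibody-treated over uninjured and over injured tissue, and injured over uninjured gave 0.13 ± 0.18 (adjusted p = 0.625). Rsad2 (ENSMUSG00000020641, chr12:26442746-26456452), which encodes viperin, stood at 1.08, 1.43, 1.21 and 0.537 CPM in the uninjured libraries, 1.27, 1.37, 1.57 and 1.89 in the injured and 2.92, 2.77, 2.92 and 3.23 in the antibody-treated libraries. It rose by 1.47 ± 0.22 (adjusted p = 0.000944) over uninjured and 0.95 ± 0.21 (adjusted p = 0.00712) over injured tissue, with all antibody-treated libraries above all others. Injured over uninjured gave 0.52 ± 0.24 (adjusted p = 0.126). Ifi44 (ENSMUSG00000028037, chr3:151730922-151749960) stood at 1.01, 0.978, 0.604 and 0.738 CPM in the uninjured libraries, 0.700, 1.06, 0.542 and 0.828 in the injured and 1.68, 1.49, 1.57 and 1.58 in the antibody-treated libraries. Injured and uninjured libraries overlapped and every antibody-treated library was higher. Its log2 fold change was 0.92 ± 0.22 (adjusted p = 0.0206) over uninjured and 1.01 ± 0.22 (adjusted p = 0.00710) over injured tissue.

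Rtp4, a chaperone of membrane receptors, rose by 0.92 ± 0.26 (adjusted p = 0.0436) over uninjured and 0.97 ± 0.26 (adjusted p = 0.0197) over injured tissue. Its annotated span is 12 exons over a long interval (ENSMUSG00000033355, chr16:23520291-23614222), and its call over uninjured tissue was lost with limma voom, a model of the 2 compared groups alone, a replicate block, reads over whole genes and uninjured 1 and antibody-treated 4 both left out (log2 fold change 0.44 to 0.92, adjusted p 0.0532 to 0.209). Parp14, an ADP-ribosyltransferase, rose by 0.45 ± 0.13 (adjusted p = 0.0253) in injured and 0.75 ± 0.13 (adjusted p = 0.00188) in antibody-treated over uninjured tissue. Xaf1, a pro-apoptotic protein, passed in none of the 3, with 0.31, 0.48 and 0.16. Cmpk2 went the other way: it had means of 26.1 ± 1.07, 21.2 ± 2.33 and 22.05 ± 0.674 CPM (SD, n = 4) in uninjured, injured and antibody-treated tissue. It fell by 0.30 on the log2 scale in injured tissue (SE 0.08, adjusted p = 0.0200), and antibody-treated over uninjured gave -0.24 ± 0.08 (adjusted p = 0.0768). Cmpk2 lies beside Rsad2 on chromosome 12, and Rsad2 gave 0.52 and 1.47 in the same comparisons. The Cmpk2 call was lost without library uninjured 1 or 4 (log2 fold change -0.30, adjusted p 0.0535 to 0.0553), and the DESeq2 Wald test, reads over whole genes and removal of the GC and length trend each called it lower in antibody-treated over uninjured tissue too. The Parp14 call in injured tissue was lost without library uninjured 1 or 2 or injured 1 or 3 or 4 (log2 fold change 0.33 to 0.47, adjusted p 0.0523 to 0.0832) and with uninjured 1 and antibody-treated 4 both left out (log2 fold change 0.42, adjusted p 0.0633). That of Rtp4 over uninjured tissue was lost without library uninjured 1 or 2 or 4 or antibody-treated 1 or 2 or 4 (log2 fold change 0.67 to 1.01, adjusted p 0.0552 to 0.124), and over injured tissue it was lost without library injured 3 or 4 (log2 fold change 0.88 to 0.90, adjusted p 0.0522 to 0.0615). The Ifi44 call over uninjured tissue was lost without library uninjured 3 or 4 or antibody-treated 1 (log2 fold change 0.79 to 0.89, adjusted p 0.0558 to 0.0644) and with uninjured 1 and antibody-treated 4 both left out (log2 fold change 0.999, adjusted p 0.0571), and that over injured tissue was lost with removal of the GC and length trend (log2 fold change 0.69, adjusted p 0.0512).

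The guanylate-binding proteins and immunity-related GTPases, which are induced above all by interferon gamma, number 6 tested members. None of the 6 passed in injured over uninjured tissue, beside 11.9% of all tested genes called higher. In antibody-treated over uninjured tissue 2 of the 6 rose, beside 6.3%, and in antibody-treated over injured tissue 1 of the 6, beside 10.9%. In injured over uninjured tissue, 2 of the 6 were higher and 0 lower at an unadjusted p under 0.05 in edgeR, and the DESeq2 Wald test and limma voom called 0 at the adjusted threshold. The 11.9% of all tested genes holds for the adjusted threshold, not for the unadjusted one. Gbp2 (ENSMUSG00000028270, chr3:142620602-142638008) stood at 5.78, 4.82, 6.91 and 6.11 CPM in the uninjured libraries, 6.69, 8.78, 5.96 and 8.28 in the injured and 9.99, 9.82, 8.20 and 9.76 in the antibody-treated libraries. Antibody-treated libraries lay above the uninjured ones and overlapped the injured ones. It rose by 0.68 ± 0.14 (adjusted p = 0.00869) over uninjured tissue, and over injured tissue gave 0.35 ± 0.14 (adjusted p = 0.0878). Gbp3 rose by 0.39 ± 0.12 (adjusted p = 0.0497) over uninjured tissue, at the edge of the threshold. Iigp1, an IRG GTPase that attacks vacuoles of intracellular parasites, stood at 2.42, 1.69, 2.08 and 1.88 CPM in the uninjured libraries, 1.85, 2.43, 1.69 and 1.48 in the injured and 3.28, 3.06, 3.07 and 2.48 in the antibody-treated libraries. Every antibody-treated library lay above all others. The rise over injured tissue was 0.68 ± 0.18 (adjusted p = 0.0160), and over uninjured tissue the value was 0.56 ± 0.18 (adjusted p = 0.0639). Gbp7 gave -0.48 ± 0.24 (adjusted p = 0.151) in injured over uninjured tissue. Irgm1 had means of 11.02 ± 1.48, 12.3 ± 1.37 and 14.4 ± 2.06 CPM and passed in no comparison. Igtp passed in none either, but only 8.58% of its exon reads were unique and its exons overlap those of Irgm2, so its level is uncertain. The Gbp2 call was lost with uninjured 1 and antibody-treated 4 both left out (log2 fold change 0.63, adjusted p 0.0517). The Gbp3 call was lost without library uninjured 1 or 3 or 4 or antibody-treated 1 or 2 or 3 (log2 fold change 0.31 to 0.42, adjusted p 0.0553 to 0.159). It was also lost with DESeq2 size factors, no filter on low counts, the DESeq2 Wald test, limma voom, a model of the 2 compared groups alone, a replicate block, reads over whole genes and uninjured 1 and antibody-treated 4 both left out (log2 fold change 0.36 to 0.39, adjusted p 0.0521 to 0.103). The Iigp1 call over injured tissue was lost with removal of the GC and length trend (log2 fold change 0.32, adjusted p 0.172).

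Interferon transcripts themselves were at or near 0. Of 21 ligand genes (alpha, beta, gamma, epsilon, kappa, zeta and lambda) none was tested. Ifng had 1 read over the 4 uninjured, 2 over the injured and 0 over the antibody-treated libraries. Ifne had 1 read in the injured and Ifnab 1 in the antibody-treated libraries, and the other 18 had none. Ifnb1 was among those without a read, and a difference in ligand transcripts was not detectable at this depth. No read over a group allows up to 3 reads, or 0.050 CPM in the uninjured, 0.046 in the injured and 0.054 in the antibody-treated group, for counting error only. The receptors were expressed throughout and summed to 121 to 135 CPM in the uninjured libraries, 127 to 129.7 after injury and 127 to 148 with the antibody. None of the 5 tested receptor genes passed edgeR's test in injured over uninjured tissue, 0 had an unadjusted p under 0.05, and DESeq2 and limma voom called 0. Of all tested genes 11.9% were called higher and 11% lower in that comparison. Ifngr1, the ligand-binding chain for interferon gamma, stood at 17.2, 19.03, 17.4 and 16.3 CPM in the uninjured libraries, 17.2, 18.8, 18.1 and 19.1 in the injured and 24.4, 22.9, 18.4 and 25.1 in the antibody-treated libraries. It rose by 0.38 ± 0.10 (adjusted p = 0.0260) over uninjured and 0.31 ± 0.09 (adjusted p = 0.0333) over injured tissue. Il10rb, a chain shared by the receptors for interferon lambda and interleukin-10, rose by 0.32 ± 0.09 (adjusted p = 0.0380) and 0.29 ± 0.09 (adjusted p = 0.0330). The type I receptor chains Ifnar1 and Ifnar2 and the gamma chain Ifngr2 passed in none of the 3 comparisons. In antibody-treated over uninjured tissue Ifnar1 gave 0.04 ± 0.09 (adjusted p = 0.799), Ifnar2 0.21 ± 0.10 (adjusted p = 0.191) and Ifngr2 -0.07 ± 0.08 (adjusted p = 0.588). Ifnlr1 had 11, 18 and 12 reads summed over the uninjured, injured and antibody-treated libraries and was not tested.

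Among the signalling genes upstream of the ISGs, Jak2, a kinase of the interferon gamma receptor, gave -0.27 ± 0.09 (adjusted p = 0.0397) in injured over uninjured tissue, a fall. Irf8 and Irf5, factors of myeloid cells and microglia, rose by 0.59 ± 0.10 (adjusted p = 0.00319) and 0.62 ± 0.16 (adjusted p = 0.0199) in injured and by 0.79 ± 0.10 (adjusted p = 0.000206) and 0.66 ± 0.17 (adjusted p = 0.0244) in antibody-treated over uninjured tissue. Of 10 measured sensing adaptors and kinases 2 rose in injured over uninjured tissue, Dhx58 by 0.83 ± 0.23 (adjusted p = 0.0241) and Ticam1 by 0.34 ± 0.10 (adjusted p = 0.0335), and 0 in antibody-treated over uninjured tissue by edgeR. There 5 were higher at an unadjusted p under 0.05, a threshold for which no share of all genes is given, and DESeq2 called 1 and limma voom 0. In antibody-treated over injured tissue 1 of the 10 rose, Tlr7, the endosomal receptor for single-stranded RNA, by 0.78 ± 0.19 (adjusted p = 0.0106). The shares called higher over all tested genes were 11.9%, 6.3% and 10.9% in injured over uninjured, antibody-treated over uninjured and antibody-treated over injured tissue, so these counts say little about the sensing genes. Of 7 negative regulators, Ptpn6 and Socs3 rose in injured over uninjured tissue by 0.59 ± 0.14 (adjusted p = 0.0140) and 0.59 ± 0.18 (adjusted p = 0.0348), and Ptpn2 gave -0.30 ± 0.08 (adjusted p = 0.0205), a fall. Ptpn6 rose in antibody-treated over uninjured tissue by 0.66 ± 0.14 (adjusted p = 0.0113). Ptpn2 rose in antibody-treated over injured tissue by 0.39 ± 0.08 (adjusted p = 0.00498). Beside the same shares of all genes, 2, 1 and 1 of the 7 were called higher in the 3 comparisons.

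A list of 65 further interferon-induced genes, of which 58 were tested, was also called mostly upward. In injured over uninjured tissue 14 rose and 1 fell, in antibody-treated over uninjured 30 rose and 0 fell, and in antibody-treated over injured 16 rose and 0 fell. Of all tested genes 11.9%, 6.3% and 10.9% were called higher and 11%, 3.22% and 10.7% lower in the same order. The median log2 fold changes of this list were 0.20, 0.48 and 0.21, beside 0.33, 0.73 and 0.35 for the members and 0.03, 0.01 and 0.01 for all tested genes. The list summed to 921 to 951 CPM in the uninjured libraries, 1013 to 1056 after injury and 1082 to 1233 with the antibody. B2m, the light chain of major histocompatibility class I, stood at 91.6, 95.2, 98.9 and 92.7 CPM in the uninjured libraries, 109, 112, 106 and 107 in the injured and 177, 161, 134 and 206 in the antibody-treated libraries. The groups lay in sequence without overlap. It rose by 0.84 ± 0.10 (adjusted p = 0.000123) over uninjured and 0.65 ± 0.10 (adjusted p = 0.000909) over injured tissue, and injured over uninjured gave 0.19 ± 0.10 (adjusted p = 0.162). Ifitm2, a membrane protein like Ifitm3, rose by 0.35 ± 0.10 (adjusted p = 0.0302) and 0.78 ± 0.10 (adjusted p = 0.000236) in injured and in antibody-treated over uninjured tissue and by 0.44 ± 0.10 (adjusted p = 0.00789) in antibody-treated over injured tissue. Slfn5, a Schlafen family protein, went against the list in injured tissue. It stood at 10.2, 9.45, 9.93 and 11.2 CPM in the uninjured libraries, 8.28, 6.66, 8.55 and 7.52 in the injured and 13.3, 13.4, 16.1 and 12.6 in the antibody-treated libraries. The antibody-treated libraries lay above all others. Slfn5 gave -0.39 ± 0.11 (adjusted p = 0.0221) in injured over uninjured tissue, a fall, and rose by 0.84 ± 0.11 (adjusted p = 0.000239) in antibody-treated over injured tissue. Ifi205, a PYHIN gene chosen for mention after its values were seen, had 1 read over the uninjured, 0 over the injured and 55 over the antibody-treated libraries.

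The members varied within groups as well. No antibody-treated mouse was highest throughout: replicates 1, 2, 3 and 4 were highest in 13, 6, 7 and 12 of the 38 tested members, and replicate 3 was lowest in 14. Among the injured libraries, replicate 3 was highest in 16 members and replicate 4 lowest in 13. In uninjured tissue the highest values were spread over the replicates, with 11, 9, 11 and 7 members. Exon reads ranged from 15159988 to 15781229 in uninjured libraries, 15507462 to 16121577 after injury and 13330379 to 13917157 with the antibody, so depth was lowest where the members were highest. All reads were unique to the gene in 22 members, and fewer than 90% were unique in 5, namely Ifi204, Ifit3, Ifit3b, Oas1a and Igtp.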

How the data were processed

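Total RNA libraries of 12 mice, 4 in each of 3 groups, were analysed from tables the submitters made. Of tools, the submitters' processing notes list Trimmomatic 0.39, FastQC 0.11.8 and CASAVA 1.8.2, with GRCm38 as genome build; which aligner and counting program were run, and if strand was used, is not given in the sources used here. Total and unique read counts, per the file headers, are deposited for exons, introns and whole genes, beside TPM per gene. GENCODE M21 held all 25749 gene identifiers at identical start and end positions. Levels between genes use the deposited TPM values as they stand.

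Total exon counts, deposited with multi-mapping reads included, were tested with edgeR 4.0.16 in R 4.3.3. filterByExpr by group left 14771 genes, libraries were scaled by TMM, and group was the sole term of a quasi-likelihood model of all 12 libraries (residual degrees of freedom: 9). The 3 group differences were tested two-sided, and p values were adjusted over all 14771 genes (Benjamini-Hochberg, 0.05). Levels within a gene are CPM on the effective library size, as mean ± SD, and log2 fold changes are given ± SE. The labels call each sample a biological replicate from a different mouse. Depth ranged from 13330379 to 16121577 exon reads per library.

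The members, role groups, pathway lists and marker lists were chosen with earlier results of these data known, so no list was given a p value. All 65 other interferon-induced genes were in the tables, and of 11 sensing adaptors Mb21d1 was not matched. Library values are given for the member of smallest p in each role group, for 2 members where at least 4 were tested and for 3 where at least 8 were, and for the 10 members of smallest p among those called in antibody-treated over injured tissue. From each pathway list up to 3 called genes of smallest p were described, with the interferon receptors. From the list of JAK-STAT and IRF genes, some results are not reported here. Promoter windows came from RefSeq (GRCm38.p6).

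Alternatives were scaling by DESeq2 size factors or by library size alone, no filter on low counts or one of 1 CPM in at least 4 libraries, DESeq2 1.42.0 with its Wald test, limma 3.58.1 voom, only the compared groups, a replicate block, unique exon reads, reads over whole genes, a GC and exon length trend removed with mgcv 1.9.3 (GC of the longest GENCODE M21 transcript), each library left out, and 2 libraries left out together. The code was tested on simulated counts with 50 genes changed at each fold. Of 1.2-fold changes 0, 4 and 2% were recovered in injured over uninjured, antibody-treated over uninjured and antibody-treated over injured tissue. In the same order 52, 60 and 56% of 1.5-fold and 86, 84 and 90% of 2-fold changes were recovered. Of the calls, 1.7, 3.1 and 8.3% were false.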

Additional observations from a re-analysis of the deposited data

Results flagged for a closer look

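Single libraries stood apart from the other 3 of their group in 14 of 114 checks (38 tested members in 3 groups), by Dixon's gap test; chance alone marks about 5% of groups. No explanation was tested for any of them. In uninjured tissue, Ddx58 was 3.49 CPM in replicate 4 and 4.09 to 4.17 in the others, and Ifit3b was 6.91 CPM in replicate 4 and 5.70 to 5.85 in the others. Replicate 1 held Oas2 at 0.672 CPM (others 0.268 to 0.335), Isg15 at 1.14 CPM (others 1.37 to 1.41) and Igtp at 5.65 CPM (others 6.84 to 6.98). Bst2 was 4.70 CPM in replicate 3 (others 3.42 to 3.63) and Lgals3bp 19.2 CPM in replicate 2 (others 17.5 to 17.8). In injured tissue, Stat2 was 24.6 CPM in replicate 1 (others 29.4 to 29.5), Rtp4 was 3.67 CPM in replicate 2 (others 1.87 to 2.17), Ifit3b was 8.91 CPM in replicate 3 (others 7.03 to 7.34) and Eif2ak2 was 5.39 CPM in replicate 4 (others 6.18 to 6.32). In antibody-treated tissue replicate 3 stood apart in each of the 3 cases: Irf9 was 14.2 CPM (others 13.2 to 13.3), Ifi204 was 4.35 CPM (others 2.63 to 2.92) and Gbp2 was 8.20 CPM (others 9.76 to 9.99).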

How the results depend on the processing

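No named member's log2 fold change that passed its test changed sign under any alternative. Of the calls upward, 4 of 13 in injured over uninjured tissue (Irf7, Oasl2, Bst2 and Lgals3bp), 17 of 24 in antibody-treated over uninjured and 11 of 18 in antibody-treated over injured tissue were kept under all alternatives that gave a value. The count of members higher in injured over uninjured tissue was 13, and 20 with library size alone, 8 with uninjured 1 and antibody-treated 4 left out together, and 6 to 14 with 1 library left out. The count lower in that comparison was 1, 2 with only the compared groups in the model, and 0 to 1 with 1 library left out. Of all tested genes, 1764 were called higher there in the main run, 3157 with library size alone and 1287 without the 2 libraries. They were 838 without uninjured 1, where 6 members rose, and 1659 without uninjured 3, where 14 rose. For antibody-treated over uninjured tissue the count higher was 24. It ranged from 18 with the same 2 libraries left out to 29 with library size alone, and from 20 to 28 with 1 library left out. Calls over the whole table moved the same way in these runs, so the ranges do not describe the members alone. Of all tested genes, 931 were called higher in the main run, 517 without the 2 libraries and 1267 with library size alone. They were 640 without antibody-treated 1, where 20 members rose, and 2054 without antibody-treated 3, where 28 rose. The count of members lower was 0, and 1 with the DESeq2 Wald test, with reads over whole genes and after removal of the GC and length trend. For antibody-treated over injured tissue the count higher was 18 and ranged from 14 with the GC and length trend removed to 20 with 2 libraries left out, and from 15 to 19 with 1 library left out. The count lower was 0, 1 with reads over whole genes, and 0 to 1 with 1 library left out. Of all tested genes, 1612 were called higher in this comparison in the main run. They were 1256 after removal of the GC and length trend and 2062 without the 2 libraries. Without injured 3, injured 4 or antibody-treated 1, where 15 members rose each time, they were 1321, 1053 and 1166. Without antibody-treated 3, where 19 rose, they were 1957. Library size alone moved the median over all genes in injured over uninjured tissue to a log2 fold change of 0.11, and that of the members to 0.41. Among all called genes, the share called higher was 51.9% in injured over uninjured tissue, 76.0% with library size alone and 37.2% after removal of the GC and length trend. For antibody-treated over uninjured tissue these shares were 66.2%, 86.3% and 36.4%. The cause was not tested.

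The replicate numbers showed no steady pairing of the samples. Deviations of same-numbered libraries of 2 groups correlated between -0.53 and 0.43. In 3 of 12 such pairings the same number was the best match of the first library. With a replicate block, 12, 22 and 16 members were higher in the 3 comparisons and 1, 0 and 0 lower. A member that was not called may still differ between groups by less than its error allows to be seen. Members near 1 CPM rest on about 13 to 16 reads per library.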
